A study of Mus musculus with 24 samples.

Results

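The nuclear-encoded subunits of the 5 complexes of oxidative phosphorylation (OXPHOS) were followed in the epididymal white adipose tissue (eWAT) of mice with and without a deletion of laminin α4 in fat cells. Members were chosen by gene symbol: those beginning with Nduf (complex I, with the assembly factors named Ndufaf left out), Sdha to Sdhd (complex II), those beginning with Uqcr (complex III), Cox4 to Cox8 without the muscle isoforms Cox7a1 and Cox8b (complex IV), and those beginning with Atp5 (complex V). This gave 81 of the 16730 genes in the tables, of which 38 belong to complex I, 4 to complex II, 8 to complex III, 14 to complex IV and 17 to complex V. All 81 passed the filter on low counts, which kept 15020 genes. The symbols do not take in Cyc1, a subunit of complex III, which is given below with other genes of the pathway. RNA of 24 male mice was measured by QuantSeq, a method that reads the 3′ end of each transcript, with 6 mice in each of 4 groups. All mice carried floxed alleles of Lama4, in which loxP sites flank exon 3. Lama4 AKO mice also carried Cre driven by the adiponectin promoter, which is active in adipocytes, and their floxed littermates without Cre (Lama4 fl/fl, labelled as wild type) were the controls. Mice of each genotype were fed chow or a high-fat diet (HFD, 45% fat) for 20 weeks, and tissue was taken at an age of 24 to 26 weeks. Each library is 1 mouse, and 5 contrasts were made: the effect of HFD over chow in Lama4 fl/fl mice and in Lama4 AKO mice, the effect of the genotype on HFD and on chow, and the difference between the diet effects of the genotypes (the interaction).

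OXPHOS complexes sit in the inner mitochondrial membrane. Complexes I and II take electrons from NADH and succinate, complex III passes them on to cytochrome c, and complex IV hands them to oxygen. Complexes I, III and IV pump protons, and complex V lets them flow back to make ATP. Most subunits are encoded in the nucleus and imported, while a few catalytic subunits are encoded in mitochondrial DNA and translated inside the organelle. The factors NRF1, GABPA, YY1 and ESRRA are known regulators of the nuclear genes. In white fat, mitochondria supply the ATP and the carbon used for making fatty acids and triglycerides.

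Libraries held between 5579590 and 18764516 counts, and the members took 1.44% to 2.37% of them. Mice of the same group stood apart from each other. The first principal component held 45.8% of the variance of all genes, and the HFD-fed Lama4 fl/fl mice lay between -76.09 and 73.51 on it, as wide as all groups together but for 1 chow-fed mouse at -91.82. The study set outlier mice aside without naming them, and 19 libraries had been inferred earlier as those it kept, leaving out chow-fed Lama4 fl/fl replicate 3, chow-fed Lama4 AKO replicate 5 and HFD-fed Lama4 fl/fl replicates 3, 4 and 6. These mice were left out for their expression, so p-values from the 19 libraries follow a selection on the outcome, and they are given beside those of all 24. The targeted gene does not check the labels here, since the reads come from the 3′ end and not from exon 3: Lama4 differed by a log2 fold change of 0.11 ± 0.34 (SE) between the genotypes on chow and by -0.69 ± 0.35 on HFD, with adjusted p-values of 0.98 and 0.347 (edgeR quasi-likelihood test, with Benjamini-Hochberg adjustment over all genes tested, as for every adjusted p below). Whole eWAT also holds cells in which the Cre is not active, and the genotype is used below as a label. The summed level of 7 adipocyte markers, all detected, had a median of 31210 CPM (counts scaled to the library total) in chow-fed Lama4 fl/fl mice (19340 to 48770), 29190 in chow-fed Lama4 AKO mice (14510 to 39080), 18670 in HFD-fed Lama4 fl/fl mice (8696 to 44470) and 10160 in HFD-fed Lama4 AKO mice (8341 to 23560). The sum of 7 macrophage markers had medians of 6697 (1317 to 9877), 3566 (1983 to 7502), 6032 (1968 to 11940) and 8582 CPM (6175 to 11980) in the same order. All of these ranges overlapped. In such bulk tissue, fewer cells of a type and less RNA per cell cannot be told apart.

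RefSeq promoter windows on GRCm38.p6, from 250 bases before to 50 after an annotated start, were held for 66 of the 81 members, in 71 windows. The NRF1 motif GCGCATGCG, read on both strands, was found in 11.3% of the member windows and in 1.75% of all 32851 windows. The ETS motif CCGGAAG, which GABPA binds, was found in 23.9% against 8.86%, the YY1 motif AAGATGGCG in 9.86% against 1.403%, and the ESRRA motif TCAAGGTCA in 2.82% against 0.423%. A match says only that the letters are in the window. The 8 members with an NRF1 match are shown because they are the members with the letters of the best-known OXPHOS regulator, and they belong to complexes I, III, IV and V. Each line gives the strand of the gene, 5′ to 3′, with the matched letters in capitals, and the palindromic core lets both strands match in some of them.
Ndufa11 (complex I, chr17:56717693-56717719, + strand): ctgcactgcGCGCATGCGcgcacgcct
Ndufa8 (complex I, chr2:36049330-36049356, - strand): cgctggagaCGCATGCGCagatggtac
Uqcr11 (complex III, chr10:80406809-80406835, - strand): tcgccttcaCGCATGCGCtatacgtct
Uqcrc1 (complex III, chr9:108936669-108936695, + strand): ctccgctctGCGCATGCGcagcgcggc
Cox6a1 (complex IV, chr5:115349103-115349129, - strand): aggaacgggGCGCATGCGcgctctcgc
Atp5g2 (complex V, chr15:102671072-102671098, - strand): gctccggccGCGCATGCGcagagcctt
Atp5k (complex V, chr5:108434432-108434458, - strand): ttcactgcgGCGCATGCGcctttctgg
Atp5l (complex V, chr9:44920966-44920992, - strand): aaccaataaCGCATGCGCatttccccc
The window of Uqcr11, a small subunit of complex III that is among the 3 members called below, also holds the ETS letters, shown here in capitals in its 250 bases before the start (chr10:80406822-80407071, - strand).
Uqcr11: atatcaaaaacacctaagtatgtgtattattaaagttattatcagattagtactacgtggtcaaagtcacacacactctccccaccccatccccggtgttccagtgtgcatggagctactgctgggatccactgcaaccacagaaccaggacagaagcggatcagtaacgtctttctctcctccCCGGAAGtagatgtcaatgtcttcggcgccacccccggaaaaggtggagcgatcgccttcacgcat

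The level of each complex in a library was taken as the mean over its subunits of log2 CPM, relative to the mean of each subunit over the 24 libraries. Complexes I, III, IV and V were highest in chow-fed Lama4 fl/fl mice. Complex I had a median of 0.17 in these mice (0.10 to 0.38), -0.15 in chow-fed Lama4 AKO mice (-0.36 to 0.30), -0.07 in HFD-fed Lama4 fl/fl mice (-0.16 to 0.28) and -0.12 in HFD-fed Lama4 AKO mice (-0.26 to 0.0004). Complex V followed with medians of 0.16, -0.20, 0.047 and -0.073. In every complex, groups that differ in diet alone or in genotype alone overlapped. In complexes I and III all 6 chow-fed Lama4 fl/fl mice lay above all 6 HFD-fed Lama4 AKO mice, which differ in both. This pair is not among the 5 contrasts. The share of all genes without overlap in it was not counted, so the separation is not read as a trait of the subunits. All other pairs overlapped. Chow-fed Lama4 AKO mice were spread widely: over all members, replicates 1 and 2 stood at 0.10 and 0.22 and replicates 3 to 6 between -0.32 and -0.09. In the same mice, the adipocyte marker sum was 39080 and 36090 CPM in replicates 1 and 2 and 34410, 23980, 14510 and 15360 CPM in replicates 3 to 6, and the genes of mitochondrial DNA took 7.67% and 9.51% of the counts against 6.39%, 4.68%, 6.03% and 4.99%. The part of either in the level of the subunits was not tested. HFD-fed Lama4 fl/fl replicates 4 and 6, with the highest adipocyte sums of their group (44470 and 37840 CPM), were also the highest of it for complexes I, II, III and V. Chow-fed Lama4 fl/fl mice went the other way. Replicate 3, with the lowest sum of that group (19340 CPM), had its highest level over all members (0.39). Replicate 1, with the highest sum (48770 CPM), had its lowest level (0.060).

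**Figure D1:**
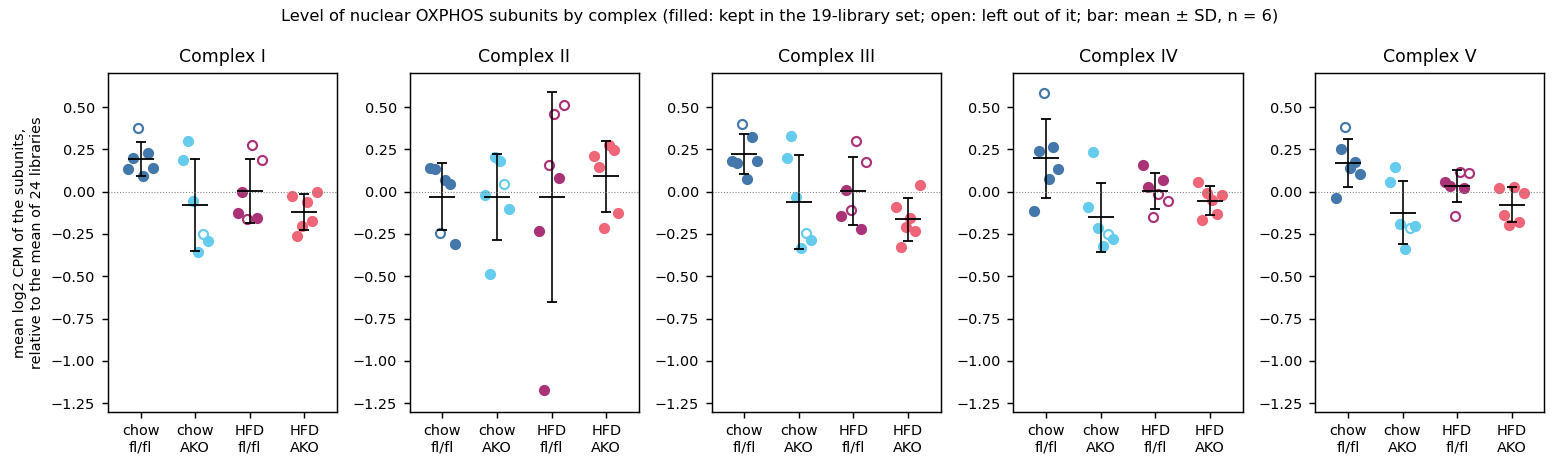
Mean log2 CPM of the subunits of each complex in each library, relative to the mean of the 24 libraries, by group. Filled points are libraries of the 19-library set, open points those left out of it, and bars give mean ± SD of 6 mice. Groups that differ in diet alone or in genotype alone overlap in every complex. In complexes I and III the chow-fed Lama4 fl/fl points all lie above those of HFD-fed Lama4 AKO mice, a pair for which the share of all genes was not counted. In complex II, 1 HFD-fed Lama4 fl/fl mouse lies at -1.17.

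Levels of the subunits were correlated in part between mice of a group. Over the 3240 pairs of members, the correlation of the deviations from the group means across the 24 libraries had a median of 0.353. It was 0.443 within complex I and 0.484 between complexes I and III, and 0.225 within complex V and 0.029 between complexes II and IV. These libraries share their scaling and their cell makeup, and the correlations are given as a description. No such median was taken over pairs of other genes, so the values do not set the subunits apart from them. The median SD within groups was 0.27 log2 units over the members and 0.42 over all genes tested.

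On chow, most fold changes of the subunits in Lama4 AKO over Lama4 fl/fl mice lay below 0, and none passed the test. The median log2 fold change over the 81 members was -0.28, with 73 below 0, while the median over all 15020 genes was 0.0041. By complex it was -0.28 for complex I (35 of 38 below 0), -0.11 for complex II (3 of 4), -0.26 for complex III (7 of 8), -0.29 for complex IV (12 of 14) and -0.29 for complex V (16 of 17). No member was called at an adjusted p of at most 0.05 by edgeR, limma-voom or DESeq2, which called 0%, 0% and 0.0333% of all genes. At an unadjusted p under 0.05, 33 members were lower and 0 higher, against 5.85% of all genes (3.22% lower and 2.62% higher). In the 19 libraries the median was -0.19, with 69 members below 0 and 15 lower at an unadjusted p under 0.05 (4.02% of all genes).

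Cox7c, a small structural subunit of complex IV, had the lowest p-value in this comparison. It ranged from 8.21 to 9.30 log2 CPM in chow-fed Lama4 fl/fl mice (median 8.83) and from 7.39 to 8.49 in chow-fed Lama4 AKO mice (median 8.17). The groups overlapped in part, and the log2 fold change was -0.76 ± 0.20 (SE), with an adjusted p of 0.634. Ndufa6, an accessory subunit of complex I, ranged from 7.79 to 8.70 (median 8.28) against 7.09 to 8.24 (median 7.70), a log2 fold change of -0.60 ± 0.16. The lowest fold changes were those of Cox7b in complex IV (-0.90 ± 0.26) and of Atp5mpl in complex V (-0.75 ± 0.24), beside Cox7c. Uqcrb had the lowest p-value of complex III (-0.56 ± 0.18), Atp5md that of complex V (-0.66 ± 0.20) and Sdhb, the iron-sulfur subunit of complex II, that of its complex (-0.32 ± 0.13). Adjusted p-values of these 5 members lay between 0.652 and 0.804. Ndufa1, named after its values were seen, was the only member whose groups did not overlap: it lay between 6.99 and 7.58 log2 CPM in the 6 Lama4 fl/fl mice and between 6.54 and 6.97 in the 6 Lama4 AKO mice, where 0.126% of all genes were lower without overlap. The fold changes above 0 were few, and the highest were those of Sdhd (0.74 ± 0.63), Cox4i2 (0.58 ± 0.33) and Ndufa4l2 (0.32 ± 0.17).

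Transcripts of the members are short, with a median of 861 bases against 2743 over genes with a model in the annotation. In the comparison of genotypes on chow, the 984 genes outside the list that were no longer than 861 bases had a median log2 fold change of -0.21, and the 13922 longer ones one of 0.015. The 41 shorter members had a median of -0.34 and the 40 longer members one of -0.20. The part of transcript length in the members' lower levels was not tested.

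**Figure D2:**
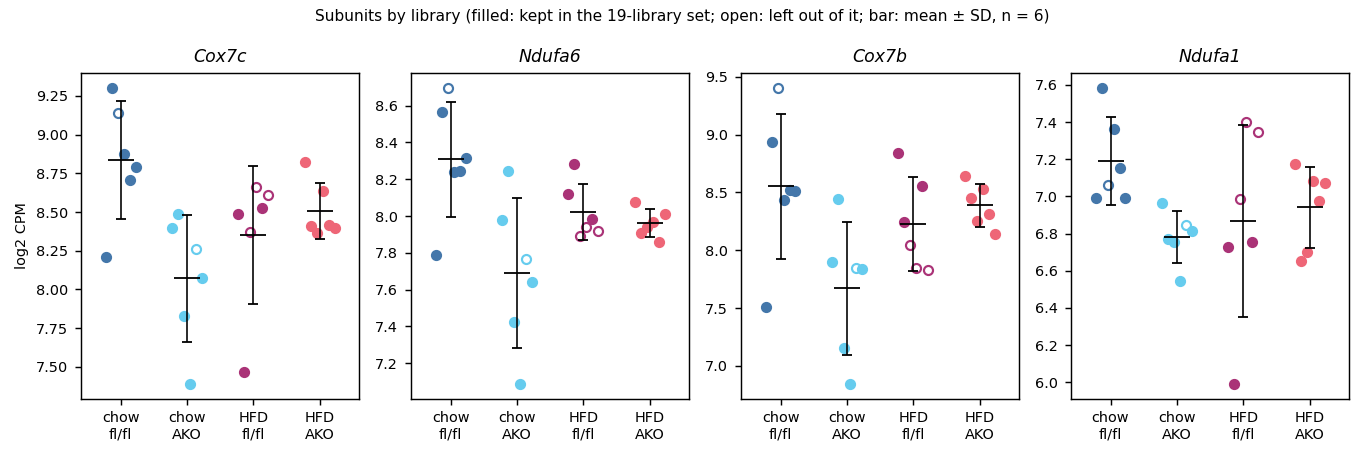
Level (log2 CPM) of 4 subunits in each of the 24 libraries by group, with mean ± SD of 6 mice; filled points belong to the 19-library set and open points do not. Chow-fed Lama4 AKO mice have lower means than chow-fed Lama4 fl/fl mice for all 4, and the 2 groups overlap for all but Ndufa1.

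In Lama4 AKO mice, HFD against chow was the comparison with the most genes called, and few of them were OXPHOS subunits. Over all genes 22.1% were called, 9.13% higher and 12.9% lower, while 3 of the 81 members were called, all lower on HFD: Atp5c1, Cox4i2 and Uqcr11. The median over members was -0.0046, beside -0.0031 over all genes, with 41 members below 0. By complex the medians were -0.043 (I), 0.096 (II), -0.19 (III), 0.094 (IV) and 0.082 (V). At an unadjusted p under 0.05, 5 members were higher and 6 lower, against 39.8% of all genes (18.2% higher and 21.6% lower). With the 19 libraries 4 members were called higher and 7 lower, against 40.3% of all genes (18.9% and 21.4%). The calls needed most of the mice: 0 members were called when chow-fed Lama4 AKO replicate 1 or 3 or HFD-fed Lama4 AKO replicate 4 or 5 was left out, with 4.02% to 7.87% of all genes then called. The criteria of the study, a fold change of 1.5 or more with an unadjusted p up to 0.001 and 2 CPM or more, called 0 members in any of the 5 contrasts with all libraries. They called 0.173% of all genes for the diet in Lama4 fl/fl mice, 4.12% in Lama4 AKO mice, 0.173% and 0.113% for the genotype on HFD and on chow, and 0.386% for the interaction.

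Atp5c1 encodes the γ subunit, the central shaft of the ATP synthase. It lay between 7.40 and 8.09 log2 CPM in chow-fed Lama4 AKO mice (median 7.62) and between 6.44 and 7.64 in HFD-fed Lama4 AKO mice (median 6.73). Of the HFD-fed mice, 5 lay below all chow-fed ones, and replicate 6 stood at 7.64, inside the chow range. The log2 fold change was -0.83 ± 0.23 with an adjusted p of 0.0231, which lay between 0.00209 and 0.0558 over 34 alternatives. Replicate 6 also had the highest adipocyte marker sum of its group, 23560 CPM against 8341 to 11350 CPM in the others. The same held for Uqcr11, whose chow-fed values were 6.72 to 7.60 (median 7.12) and whose HFD-fed values were 6.29 to 7.10 (median 6.53), with replicate 6 highest; it fell by 0.58 ± 0.20 on the log2 scale (adjusted p = 0.039, 0.0109 to 0.0934 over the alternatives). The part of the adipocyte content in either was not tested. Over the 7 adipocyte markers, 4 fell in this comparison, with a median log2 fold change of -1.24, and 2 of 7 macrophage markers rose, with a median of 1.18.

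Cox4i2 is the isoform of subunit IV that is induced at low oxygen, and it was sparse here, with 7 to 84 counts per library. It ranged from 1.02 to 2.47 log2 CPM in chow-fed Lama4 AKO mice (median 1.42) and from -0.37 to 1.19 in HFD-fed ones (median 0.81), with overlap between the groups. It fell by 1.07 ± 0.34 (adjusted p = 0.0322, 0.014 to 0.0987 over the alternatives). Its partner Cox4i1, the main isoform, did not pass the test (-0.065 ± 0.14). Atp5g1, 1 of the 3 genes for the proton-carrying c ring of complex V, was higher in all 6 HFD-fed Lama4 AKO mice (5.50 to 6.02) than in all 6 chow-fed ones (5.03 to 5.48); 2.72% of all genes were higher without overlap in this comparison, and its log2 fold change of 0.47 ± 0.21 had an adjusted p of 0.107. Ndufa10 (-0.82 ± 0.31, adjusted p = 0.0596) and Ndufv1 (-0.44 ± 0.17, adjusted p = 0.0598) of complex I lay just outside the threshold, and both were past it in the 19 libraries. The highest fold changes, beside that of Atp5g1, were those of Cox7b (0.64 ± 0.26) and Atp5mpl (0.45 ± 0.24).

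**Figure D3:**
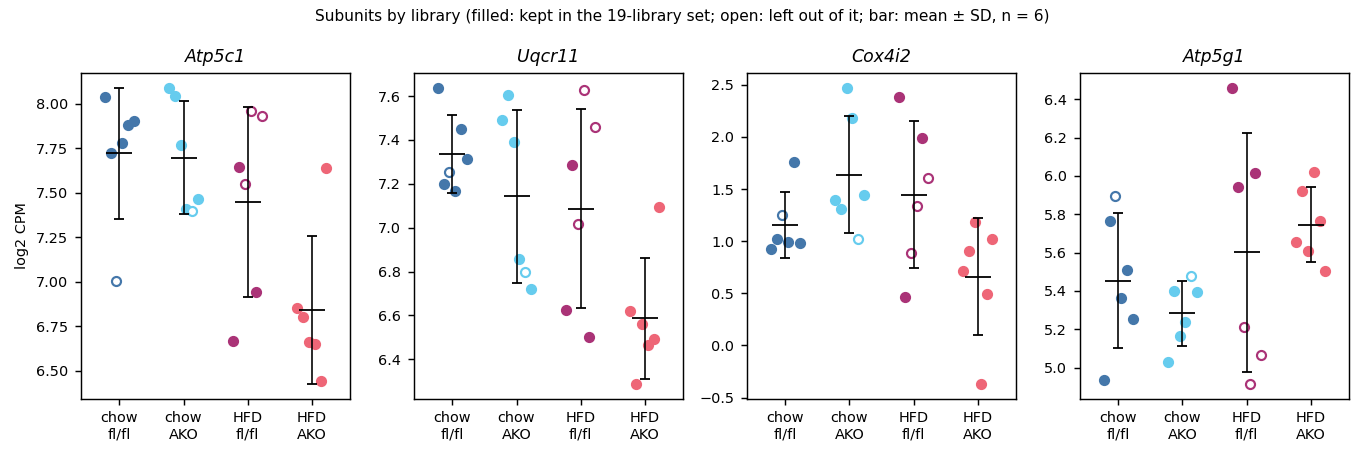
Level (log2 CPM) of the 3 subunits called in HFD-fed against chow-fed Lama4 AKO mice, and of Atp5g1, in each of the 24 libraries by group, with mean ± SD of 6 mice; filled points belong to the 19-library set. Replicate 6 is the HFD-fed Lama4 AKO mouse at 7.64 for Atp5c1 and at 7.10 for Uqcr11, and Atp5g1 shows no overlap between the 2 Lama4 AKO groups.

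In Lama4 fl/fl mice, HFD against chow gave no call in any gene with edgeR (0% called), and the spread of the HFD-fed mice was wide. The median over members was -0.21, with 65 of 81 below 0, against -0.0081 over all genes, and it lay between -0.16 and -0.23 in all 5 complexes. The tools limma-voom and DESeq2 called 0 members, beside 0% and 0.186% of all genes. At an unadjusted p under 0.05, 7 members were lower and 1 higher (9.01% of all genes, 3.52% lower and 5.49% higher). Atp5d, the δ subunit of the ATP synthase, was the higher one: 7.28 to 7.75 log2 CPM on chow (median 7.43) and 7.51 to 8.23 on HFD (median 7.92), a log2 fold change of 0.41 ± 0.12 with an adjusted p of 0.448. Cox7a2 (-0.60 ± 0.21), Uqcr10 (-0.43 ± 0.16) and Ndufa7 (-0.39 ± 0.18) had the lowest p-values of complexes IV, III and I. The lowest and highest fold changes, Cox6a2 (-0.81 ± 0.45) and Sdhd (1.11 ± 0.63), were also those with the largest errors; Atp5l (-0.48 ± 0.24), Cox6b2 (0.47 ± 0.26) and Cox4i2 (0.41 ± 0.33) came next beside Cox7a2.

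This comparison depended on the mice. With the 19 libraries, which keep 3 of the 6 HFD-fed Lama4 fl/fl mice, 17 members were called, 6 higher and 11 lower, and 29.0% of all genes (13.6% higher, 15.5% lower). Named after their values were seen, Ndufs5 (-1.05 ± 0.29), Ndufa10 (-1.04 ± 0.30) and Ndufab1 (-0.90 ± 0.25), the acyl carrier of complex I, had the lowest fold changes of those called lower, and Atp5g2 (0.98 ± 0.27), Cox7a2l (0.90 ± 0.17) and Atp5g1 (0.77 ± 0.17) the highest of those called higher. Cox7a2l had a wide range in the 6 HFD-fed Lama4 fl/fl mice, from 5.70 to 7.53 log2 CPM against 5.99 to 6.89 on chow. With 24 libraries its fold change was 0.31 ± 0.22 (adjusted p = 0.689). Atp5c1, called in Lama4 AKO mice with all libraries, had a log2 fold change of -0.23 ± 0.23 in Lama4 fl/fl mice with 24 libraries and of -0.72 ± 0.26 (adjusted p = 0.0411) with 19. In the same 19 libraries 6 of 7 adipocyte markers were lower on HFD in Lama4 fl/fl mice, against 0 of 7 with 24. The HFD-fed mice left out, replicates 3, 4 and 6, had adipocyte marker sums of 23110, 44470 and 37840 CPM. Replicates 1, 2 and 5, which were kept, had 8696, 11010 and 14230 CPM. On chow, replicate 3 was left out with 19340 CPM, and those kept had 24670 to 48770 CPM. This marker count thus rests on the choice of mice and was not tested apart from it.

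**Figure D4:**
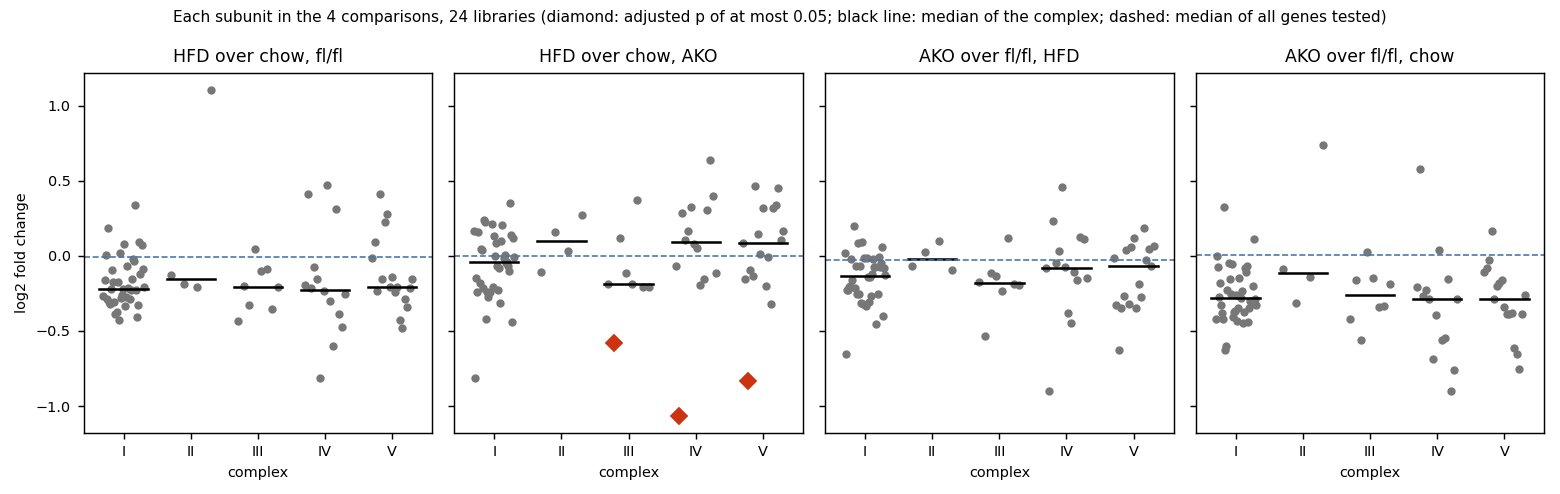
Log2 fold change of each of the 81 subunits in the 4 comparisons with all 24 libraries, by complex. Black lines are medians of a complex, the dashed line the median of all genes tested, and diamonds the 3 members with an adjusted p of at most 0.05; most points lie below the dashed line in the comparison of genotypes on chow and on both sides of it for HFD over chow in Lama4 AKO mice.

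On HFD, Lama4 AKO against Lama4 fl/fl mice gave a median over members of -0.11, with 62 of 81 below 0, against -0.026 over all genes. No member and no gene was called with edgeR (0%). The tools limma-voom and DESeq2 called 0 members, beside 0.00666% and 0.266% of all genes. At an unadjusted p under 0.05, 12 members were lower and 0 higher (14.8% of all genes, 8.99% lower and 5.83% higher). Atp5d ranged from 7.51 to 8.23 in HFD-fed Lama4 fl/fl mice and from 7.31 to 7.83 in HFD-fed Lama4 AKO mice, a log2 fold change of -0.35 ± 0.12 (adjusted p = 0.293). Cox4i2 (-0.90 ± 0.34), Ndufa10 (-0.65 ± 0.31) and Atp5c1 (-0.63 ± 0.23) had the lowest fold changes, Cox6a2 (0.46 ± 0.45), Cox5a (0.23 ± 0.14) and Ndufa4l2 (0.20 ± 0.18) the highest, and those of Uqcr11 (-0.54 ± 0.20) and Ndufb10 (-0.31 ± 0.12) had the lowest p-values of complexes III and I. That of Ndufa10 turned in the 19 libraries, to 0.058 ± 0.28. The median of the members in them was -0.049, with 47 of 81 below 0.

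The interaction asks whether the diet response differed between the genotypes. No member passed (lowest adjusted p = 0.239), and 1 gene of all did, or 0.00666%. DESeq2 and limma-voom also called 0 members, beside 0.386% and 0% of all genes. The median over members was 0.18, with 57 of 81 above 0, against -0.029 over all genes, and 10 members were higher and 3 lower at an unadjusted p under 0.05 (15.6% of all genes, 6.82% higher and 8.74% lower). The same chow-fed mice enter the interaction and the comparison of genotypes on chow. Cox7c had -0.47 ± 0.20 for HFD in Lama4 fl/fl mice and 0.40 ± 0.20 in Lama4 AKO mice, which gives an interaction of 0.87 ± 0.29 (adjusted p = 0.244). Cox7b (1.02 ± 0.37), Ndufb11 (0.49 ± 0.20), Uqcrfs1 (0.46 ± 0.21) and Sdhb (0.34 ± 0.18) lay the same way, and Cox4i2 (-1.48 ± 0.47), Sdhd (-0.83 ± 0.89), Ndufa10 (-0.66 ± 0.44) and Atp5d (-0.51 ± 0.17) the other way. Cox6a2 had the highest value, 1.14 ± 0.64.

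Within complex I, the 7 nuclear core subunits, which carry the flavin and the iron-sulfur clusters, had a median log2 fold change of -0.11 for Lama4 AKO against Lama4 fl/fl on chow, from -0.31 ± 0.15 for Ndufs7 to 0.12 ± 0.17 for Ndufv1, beside -0.28 for all 38 members, the core included; core and other subunits were not tested against each other. Ndufs1, the largest of them, ranged from 6.36 to 6.91 log2 CPM in chow-fed Lama4 fl/fl mice and from 6.21 to 6.75 in chow-fed Lama4 AKO mice. Ndufv2 (-0.28 ± 0.12) and Ndufs8 (-0.20 ± 0.13) lay lower without passing the test. On HFD, Ndufs3 (-0.45 ± 0.19) and Ndufv1, which binds NADH (-0.40 ± 0.17), had the lowest values of the core in Lama4 AKO against Lama4 fl/fl mice. Ndufa4 and its paralogue Ndufa4l2, both now placed with complex IV by biochemists but kept here by symbol, had -0.42 ± 0.18 and 0.32 ± 0.17 for Lama4 AKO against Lama4 fl/fl on chow.

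Complex II is the only one that is made of nuclear subunits alone, and 1 of its 4 genes varied unlike the rest. Sdha, the flavoprotein, ranged from 7.22 to 8.11 log2 CPM over the 24 libraries, Sdhb from 7.49 to 8.51 and the membrane anchor Sdhc from 6.63 to 7.78. Sdhd, the other anchor, ranged from 0.26 to 6.34, or from 17 to 1209 counts. Its medians were 4.39 in chow-fed Lama4 fl/fl mice (3.20 to 5.29), 5.0035 in chow-fed Lama4 AKO mice (2.60 to 6.24), 5.66 in HFD-fed Lama4 fl/fl mice (0.26 to 6.24) and 5.61 in HFD-fed Lama4 AKO mice (3.84 to 6.34). Every group held mice far apart, and the SD within groups was 1.49, the largest of the members and followed by 0.89 for Cox6a2, 0.59 for Ndufa10 and 0.55 for Cox4i2.

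The deviations of Sdhd from its group means had a correlation of -0.375 with the mean of the other members across the 24 libraries. Other genes followed Sdhd closely: 60 genes had a correlation within groups of at least 0.9. The median over members was 2 such genes, and Ndufa10 (156), Atp5g1 (103) and Cox7a2l (101) had more. The closest were Eif2ak3 (0.98), Mrps28 (0.979), Rnf5 (0.978) and Nup107 (0.97), and leaving out the 2 libraries farthest from the median of Sdhd kept them between 0.936 and 0.971. They were chosen for this likeness, and are given as a description. The last 500 bases of the Sdhd transcript, at chr9:50596357-50603812 on the reverse strand, share no stretch of 50 bases with another annotated gene and overlap no other exon. The 3 other subunits had a median log2 fold change of -0.14 for the genotypes on chow, beside -0.11 with Sdhd. Sdhc was level in 3 of the groups, with medians of 7.47, 7.29 and 7.34, and ranged from 6.63 to 7.78 in HFD-fed Lama4 fl/fl mice, where replicates 1, 2 and 5 stood at 6.63, 6.91 and 6.77 and below all 6 chow-fed ones. Its fold change for HFD in Lama4 fl/fl mice was -0.20 ± 0.17 (adjusted p = 0.726) with 24 libraries and -0.70 ± 0.15 (adjusted p = 0.00207) with the 19, which keep those 3 mice.

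**Figure D5:**
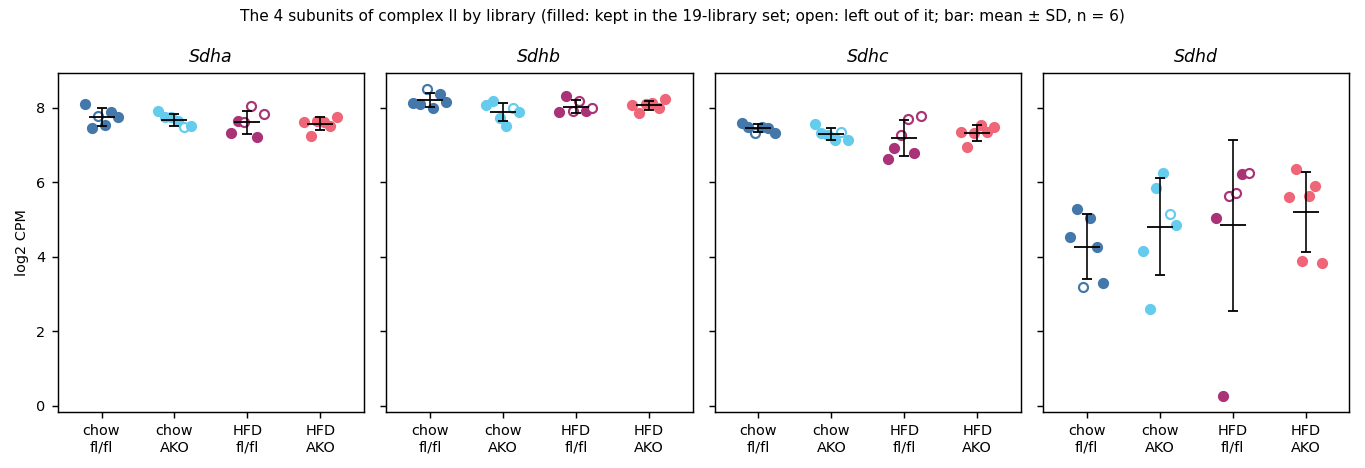
Level (log2 CPM) of the 4 subunits of complex II in each of the 24 libraries by group, on 1 axis, with mean ± SD of 6 mice; filled points belong to the 19-library set. Sdhd spreads from 0.26 to 6.34 while the other 3 stay between 6.63 and 8.51.

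In complex III the core proteins Uqcrc1 and Uqcrc2 had 0.028 ± 0.12 and -0.15 ± 0.14 for Lama4 AKO against Lama4 fl/fl on chow. Uqcrfs1, the Rieske iron-sulfur protein, ranged only from 7.18 to 7.31 log2 CPM in chow-fed Lama4 fl/fl mice and from 6.33 to 7.23 in chow-fed Lama4 AKO mice (-0.34 ± 0.15, adjusted p = 0.831). On HFD it was at 7.07 to 7.50 in Lama4 AKO mice, which gave 0.37 ± 0.15 for the diet in that genotype (adjusted p = 0.0674). In complex IV, the isoforms usual in muscle and other special tissues were sparse. Cox6a2, the heart and muscle isoform, had 13 to 124 counts per library in the chow groups and lay at 0.57 log2 CPM in 1 chow-fed Lama4 fl/fl mouse and between 2.84 and 3.24 in the other 5. Cox6a1, the common isoform, stayed between 8.69 and 9.68 in all 24 libraries. In complex V, the catalytic subunits Atp5a1 and Atp5b had -0.11 ± 0.11 and -0.082 ± 0.14 for the genotypes on chow. Of the c-ring genes, Atp5g3 ranged from 9.62 to 10.52 and Atp5g2, with 10 to 87 counts per library, from 0.55 to 2.43.

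Other genes of the pathway were read from lists. Of 48 genes listed as assembly factors 47 were tested. On HFD in Lama4 AKO mice 2 were higher and 4 lower, with a median log2 fold change of 0.020, against 22.1% of all genes called. In the other comparisons with 24 libraries 0 were called. With the 19 libraries, 9 were higher and 5 lower for the diet in Lama4 fl/fl mice (29.0% of all genes) and 6 higher and 10 lower in Lama4 AKO mice (40.3%). Of the 2 higher with 24 libraries, Atpif1 (1.07 ± 0.37, adjusted p = 0.0439) encodes an inhibitor of the ATP synthase and not an assembly factor. Cyc1, the cytochrome c1 subunit of complex III left out by its symbol, was lower on HFD in Lama4 AKO mice (-0.53 ± 0.14, adjusted p = 0.0187). Cytochrome c, Cycs, had -0.074 ± 0.17 in these mice. Of 12 regulators 11 were tested, with 1 higher and 2 lower in the same comparison. Of the 13 mRNAs of mitochondrial DNA 8 were tested, and 2, mt-Nd2 (-1.19 ± 0.33) and mt-Nd6 (-2.01 ± 0.44), were lower in it; with the 19 libraries 3 were lower on HFD in each genotype. On chow their median for Lama4 AKO against Lama4 fl/fl was -0.42 with 0 called.

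For 30 of the 81 members, the last 500 bases of the transcript share a stretch of at least 50 bases, the read length, with another annotated gene, so that reads may be lost or divided between copies. Among the members called, Atp5c1 shares such stretches with 3 genes, Uqcr11 with 1 and Cox4i2 with 0, and Cox7c shares them with 3. The end of Atp5g1 shares them with 78 genes, and that of Atp5g2 shares 447 such stretches with 2 genes. Exons of 4 members overlap another gene on the same strand and those of 25 a gene on the other strand, and whether the counting used the strand is not given in the sources used here. Over the 50 members without shared ends or such an overlap on the same strand, 1 was called for HFD in Lama4 AKO mice, Cox4i2. Of all genes 22.1% were called there.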

How the data were processed

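QuantSeq 3′ libraries with 50-base reads were aligned to GRCm38 and counted by the authors with the Lexogen QuantSeq pipeline 1.8.8 and deposited as raw counts per gene and library; the submitters' processing notes also name R 4.0.3 and DESeq2 1.30. The other deposited file is a normalized signal, the counts of a library over its size factor, from which only symbols and positions were taken; multiplied by that factor, 100% of its values were whole within 0.01. No gene has a total under 72 counts, and a count of 0 allows up to 3 counts of a library, an allowance for counting error alone. Tests were run with edgeR 4.0.16 under R 4.3.3 (TMM factors, a filter of 1 CPM or more in 3 or more libraries, quasi-likelihood test on all 24 libraries with 1 coefficient per group), and with limma 3.58.1 (voom) and DESeq2 1.42.0 as alternatives. Levels are log2 CPM with a prior count of 2. P-values were adjusted by Benjamini and Hochberg over all genes tested, and a member was called at 0.05. The code was tested on simulated data. The 60 pairs of libraries within groups differed by more than counting error (chi-square of at least 5.22 per degree of freedom).

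Values of 1 member are not reported here. Members, lists and alternatives were chosen with earlier results of these data known. Named are the subunits of complex II, the 7 core subunits of complex I, Uqcrfs1, Uqcrc1, Uqcrc2, Atp5a1, Atp5b, Atp5c1, the isoforms Cox4i1, Cox4i2, Cox6a1, Cox6a2, Cox7a2, Cox7a2l, Ndufa4, Ndufa4l2 and Atp5g1 to Atp5g3, for each complex and comparison the member with the lowest p, and in each comparison the 3 members with the highest and the 3 with the lowest fold change. Motif letters were searched in RefSeq windows, and transcript ends were compared over GENCODE gene models of GRCm38, in which 81 of 81 members had the deposited position. The alternatives were the 19 libraries, limma-voom on all and on the 19, DESeq2, RLE factors, library totals, no filter, filterByExpr, only the groups compared, a replicate block, other call rules, and each library left out. Chosen after seeing the data were leaving out each of the 19 in turn, complex II without Sdhd, and members without shared ends.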

Additional observations from a re-analysis of the deposited data

Results flagged for a closer look

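In 200 groups of 6 libraries, those of the complex levels and of 44 named members, the mouse farthest from the others was set against the range of its group by Dixon's test, and 15 groups were past its critical value. Chance flags about 1 group in 20. The complex V level was lowest in HFD-fed Lama4 fl/fl replicate 3 (-0.145 log2 units relative to the mean of the 24 libraries, the next at 0.022).

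Of the named members, chow-fed Lama4 fl/fl replicate 3 stood apart for 4: it was low for Atp5c1 (7.0046 log2 CPM, the next at 7.73) and Ndufa10 (6.26, the next at 7.47) and high for Atp5g2 (1.87, the next at 1.21) and Ndufb11 (7.03, the next at 6.71). It has the lowest adipocyte marker sum of its group (19340 CPM) and is left out of the 19 libraries. Chow-fed Lama4 fl/fl replicate 1 was low for Cox6a2 (0.57, the next at 2.84) and Ndufa4l2 (2.51, the next at 2.87), and has the highest adipocyte sum of all libraries (48770 CPM).

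HFD-fed Lama4 fl/fl replicate 2 was low for Sdhd (0.26, the next at 5.04), Cox7c (7.47, the next at 8.37) and Atp5md (7.03, the next at 7.75). HFD-fed Lama4 AKO replicate 6 was high for Atp5c1 (7.64, the next at 6.85) and Uqcrc2 (7.38, the next at 7.02). HFD-fed Lama4 AKO replicate 2 was low for Sdhc (6.93, the next at 7.32), Uqcr10 (7.18, the next at 7.54) and Ndufa4l2 (2.34, the next at 2.89).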

How the results depend on the processing

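With all 24 libraries, 0 members were called in every comparison but HFD against chow in Lama4 AKO mice under every tool, scaling and filter tried. In that comparison 3 were called (22.1% of all genes), 3 also with limma-voom, RLE factors, no filter or filterByExpr, 6 with DESeq2 (1 higher, 5 lower; 28.8% of all genes), 6 with library totals (3 higher, 3 lower; 20.7%), 8 with only the 2 groups compared (3 higher, 5 lower; 35%) and 0 by the study's criteria. Over the 50 members without shared ends 1 was called. The direction of Atp5c1, Cox4i2 and Uqcr11 in it was the same in all 34 alternatives, and the calls were lost in 4, 7 and 9 of them. At an unadjusted p of at most 0.05, 8 members were past in Lama4 fl/fl mice for the diet, 11 in Lama4 AKO mice, 12 for the genotypes on HFD, 33 for them on chow and 13 for the interaction.

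With the 19 libraries, 17 members were called for the diet in Lama4 fl/fl mice (29.0% of all genes) and 11 in Lama4 AKO mice (40.3%). With limma-voom on them it was 19 (30.9%) and 11 (40.6%). Leaving out 1 of 24 libraries gave 0 to 6 calls in Lama4 AKO mice: 0 without chow-fed Lama4 AKO replicate 1 or 3 (6.34% and 4.02% of all genes called) or HFD-fed Lama4 AKO replicate 4 or 5 (5.35% and 7.87%), 1 without HFD-fed Lama4 AKO replicate 1 (11%), 5 when chow-fed Lama4 fl/fl replicate 1 or Lama4 AKO replicate 6 was dropped, and 6 when chow-fed Lama4 AKO replicate 5 was (30.4%). With the 19 the range was 4 to 14 (31.1% and 45.1% of all genes; without chow-fed Lama4 AKO replicates 3 and 6). In Lama4 fl/fl mice it was 0 with all 24 (at most 0.00668% of all genes). With the 19 it was 6 to 25 (13.3% and 31.3%, without HFD replicates 1 and 2). There were 11 calls without chow-fed replicate 4 or 6 (23.5% and 25.5%), HFD replicate 5 (23.5%), or HFD-fed Lama4 AKO replicate 3 or 4 (28% and 28.2%). Leaving out HFD replicate 2 of Lama4 fl/fl mice from the 19 also gave the most calls for the genotypes on HFD (0 to 6, 2.37% of all genes) and the interaction (0 to 3, 1.57%).

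With 1 library left out, of the 24 and of the 19 in turn, the members' median ranged from -0.36 to -0.22 and from -0.28 to -0.11 for the genotypes on chow (-0.11 when replicate 4 of the chow-fed Lama4 AKO mice was dropped), from -0.18 to -0.071 and from -0.13 to 0.045 for them on HFD (-0.18, -0.071 and 0.045 without HFD-fed Lama4 fl/fl replicates 3, 4 and 2), from 0.080 to 0.26 and from 0.033 to 0.27 for the interaction (0.080 and 0.033 without chow-fed Lama4 AKO replicates 6 and 4), from -0.26 to -0.14 and from -0.26 to -0.16 for the diet in Lama4 fl/fl mice, and from -0.063 to 0.047 and from -0.12 to 0.022 in Lama4 AKO mice. The SD of the members' mean level within groups was 0.15.

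The direction turned for Ndufa10 in the genotypes on HFD (0.058 in the 19 libraries, 0.096 with limma-voom on them) and in the interaction (0.16 and 0.21), and for Sdhd with limma-voom on the 19 (-0.69 for the diet in Lama4 fl/fl mice, 1.11 for the interaction). It also turned when 1 library was left out for Atp5b (-0.15 to 0.0087) and Uqcrc1 (-0.019 to 0.066) in the genotypes on chow, and for Atp5g2 (-0.0093 to 0.45) and Ndufa10 (-0.36 to 0.010) in the diet in Lama4 fl/fl mice. None of these was called with all 24 libraries, and the cause was not tested.

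Groups share replicate numbers, and the labels do not say whether a number marks a litter or a batch. Of 36 same-numbered pairs of libraries, 15 deviated together with a correlation over 0.1 (range -0.534 to 0.714). Of 24 libraries, 5 matched their own number best. Such correlations cannot tell whether the numbers pair mice. With the replicate block, 1 member was called in Lama4 AKO mice (Atp5c1; 16% of all genes) and 0 in the other comparisons, with medians of -0.21, 0.0071, -0.12, -0.29 and 0.19 in the order of the text's comparisons of diet in Lama4 fl/fl and Lama4 AKO mice, genotype on HFD and on chow, and the interaction.

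The depth limits the sparse isoforms: Cox4i2 and Atp5g2 had at most 84 and 87 counts per library.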
